A study of Capra hircus with 12 samples.

Results

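Early anagen, when cashmere growth restarts, was compared with catagen, when the secondary hair follicles (SHFs) regress, using the miRNA content of both phases. Early anagen was represented by the libraries of May (1 of female and 1 of male goats) and catagen by those of November and December (1 of each sex in each month, 4 libraries). All 6 libraries were made from SHFs that were cut out of scapular skin of untreated Liaoning cashmere goats aged 1.5 years, and the labels give no genotype, treatment or other difference between the groups than the month. Every listed miRNA with more than 5 CPM in at least 2 of these 6 libraries was included, with no choice by the size of its difference, and this held for 286 of the 376 miRNAs listed. Of the 286, 20 carry only the number of a predicted candidate, and the other 90 miRNAs were too low to be tested.

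A miRNA is cut from a hairpin precursor whose 5p and 3p arms can both give a mature miRNA, and it lowers the translation and stability of mRNAs that match its seed. Hair follicles run through growth (anagen), regression (catagen) and rest (telogen), and each cycle renews the epithelial follicle under the control of its mesenchymal dermal papilla. In SHFs this cycle follows the season and gives the yearly cashmere coat. Whole follicles were sequenced, so fewer cells of a type and less of a miRNA per cell cannot be told apart.

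The libraries held 3135292 to 4136374 counts in May and 3455772 to 5153348 in catagen, and 361 of the 376 miRNAs had a count in all 6. The labelled tissue carried miRNAs of skin epithelium in every library, with miR-203 between a TPM (the library's counts scaled to a total of 1000000) of 57682 and 82083 and the miR-200 family summing to between 9179 and 15649. Markers of blood and muscle were present too, with miR-451-5p at 3.61 to 30.2 and miR-1 at 1752 to 3279. The female December library stood apart from the other catagen libraries. Its counts differed from those of each other catagen library by a chi-square of 225.7 to 312.2 times its degrees of freedom, against 73.1 to 94.4 between the other 3, and results that rest on it are given with and without it below.

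Levels were compared under 2 scalings, because the most abundant miRNAs took unequal shares of the libraries. The 10 most abundant took 67.3% and 65.8% of the counts in the female and male May libraries and 73.0% to 75.0% in catagen, a difference of -7.70 percentage points between 66.5% ± 1.01 (SD, n = 2) and 74.2% ± 0.842 (SD, n = 4). The exact two-sided permutation test gave p = 0.133. This is the smallest p the test can give for 2 libraries against 4, as it doubles the p of the smaller tail. The 10 miRNAs were ranked by their mean level over the 6 libraries, of which 4 are of catagen. Scaling by library totals leaves such a difference in all other miRNAs, and TMM (trimmed mean of M-values) scales the libraries so that most miRNAs do not differ. The TMM factors were 1.21 and 1.22 in May and 0.840 to 0.994 in catagen, and log2 fold changes of May against catagen were a median of 0.44 lower with TMM than with library totals. The median over the 286 miRNAs was 0.03 with TMM and 0.47 with totals.

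A miRNA was called DE at an adjusted p under 0.05 in edgeR's quasi-likelihood test, with at least a 2-fold difference. With TMM, 30 of the 286 miRNAs (10.5%) were higher in May and 21 (7.34%) were lower, 51 in all (17.8%). With library totals, 71 (24.8%) were higher and 10 (3.5%) lower, 81 in all (28.3%). The 30 miRNAs higher with TMM were all called higher with totals, and 10 of the 21 lower ones were called lower with both scalings. The other 11 were called with TMM alone, 41 were called higher with totals alone, and none was called in opposite directions. Between the TMM-scaled libraries of May and catagen there was no overlap for any of the 51 called miRNAs, nor for 183 of the 286 tested (64%). The split of calls also moved with the tool, to 23 higher and 25 lower with RLE factors, 25 and 26 with DESeq2, 42 and 19 in a fit of only these 6 libraries, and 23 and 27 when the expression filter was applied over 12 libraries. Without the female December library 61 miRNAs were called, 36 higher and 25 lower, and without the male May library 32, of which 22 were higher.

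**Figure D1:**
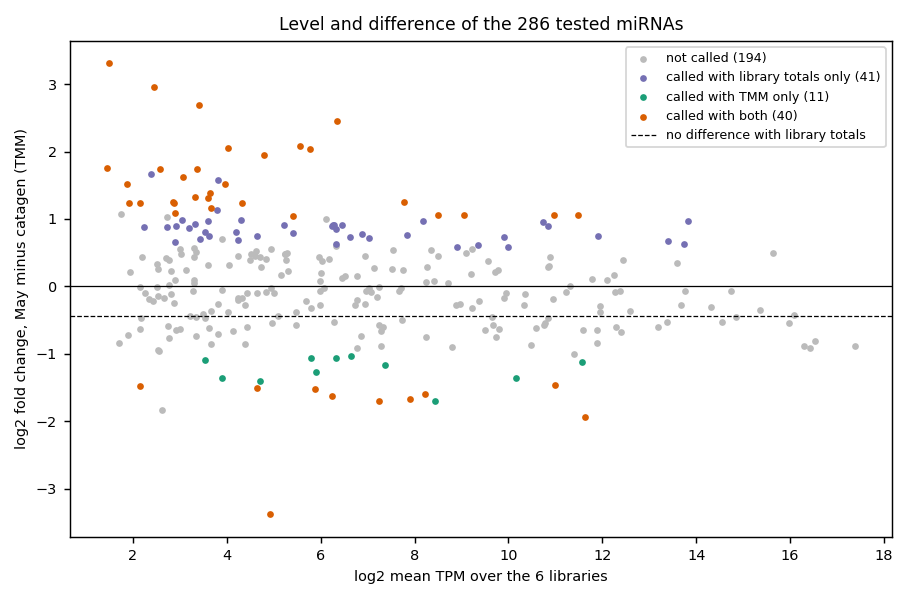
Log2 fold change of May minus catagen with TMM (vertical axis) against the log2 of the mean TPM over the 6 libraries (horizontal axis), 1 point per tested miRNA, coloured by the scaling under which it was called. The dashed line, 0.44 below 0, is where a miRNA that does not differ with library totals falls; the largest differences in favour of May lie among miRNAs of low level.

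Calls higher in May were most frequent among miRNAs of low level, while calls lower in May were not. Of 165 miRNAs with a mean TPM under 100 over the 6 libraries, 25 were higher and 12 lower in May with TMM, and of 63 from 100 to 1000 these numbers were 3 and 5. Of 33 miRNAs from 1000 to 5000, 2 were higher and 4 lower, and of the 25 at 5000 or more 0 were called with TMM, although 3 of these were called higher with totals. A filter by level passes a miRNA that is high in a single group: 14 miRNAs passed only through the May libraries, of which 9 were called higher in May, and 6 only through catagen, of which 1 was called lower. The 9 were miR-544-5p, miR-410-3p, miR-411b-5p, miR-369-5p, miR-329b-3p, miR-216b, miR-3955-5p, miR-16b-3p and miR-301a-3p. The 1 called lower was miR-877-5p. The differences of these miRNAs are partly a condition of being tested.

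The miRNAs of the imprinted DLK1-DIO3 region made up 17 of the 30 calls in favour of May. These miRNAs lie in a long array that is transcribed from the maternal chromosome and is best known from embryonic tissue, muscle and brain. Of 48 listed members, 33 were tested, and 17 of them were higher and 0 lower in May with TMM (24 and 0 with totals). Their median log2 fold change was 1.24 with TMM and 1.68 with totals, against -0.07 and 0.37 over the 253 miRNAs outside the list. Outside the list, 13 miRNAs were higher and 21 lower with TMM. Of the 33, 7 passed the filter through May alone, and 31 had a positive fold change with TMM, the exceptions being miR-381 (-0.17) and miR-127-3p (-0.02). The TPM of all listed members summed to 1960 in the female and 2272 in the male May library, to 786 and 1003 in those of November, and to 937 and 1154 in those of December.

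The most abundant DE member was miR-494, with a TPM of 169 and 218 in the female and male May libraries. It had 20.3 and 20.9 in November and 28.2 and 34.4 in December, so both May libraries lay several times above every catagen library. Its log2 fold change was 2.45 ± 0.48 (SE, adjusted p = 0.00219) with TMM and 2.89 with totals. Its neighbour miR-410-3p had a TPM of 13.5 and 14.03 in May, 0.87 and 1.03 in November and 1.56 and 1.55 in December, with a log2 fold change of 2.96 ± 0.52 (adjusted p = 0.00123). The largest difference was that of miR-544-5p, at 6.29 and 8.61 in May and 0.26 to 0.78 in catagen. It rested on few reads, 53 in the May libraries together and 9 in those of catagen, a ratio of 13.8 with totals (exact 95% interval 6.73 to 31.7, counting error only), and its log2 fold change was 3.31 ± 0.56 (adjusted p = 0.000954). All 3 were called in each of the 6 fits that left out a library. Both miR-410-3p and miR-544-5p passed the filter only through the May libraries, so their difference is partly a condition of being tested.

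Both arms of miR-369 rose together in May. The 3p arm had a TPM of 97.4 and 112 in May and 14.7 to 21.4 in catagen (log2 fold change 2.08 ± 0.35, adjusted p = 0.000949). The 5p arm had 6.04 and 5.42 in May and 0.89 to 1.55 in catagen (1.75 ± 0.49, adjusted p = 0.0125). That 5p arm passed the filter only through the May libraries. For miR-136, the 3p arm had 51.7 and 68.3 in May against 6.66 to 13.9 in catagen (1.95 ± 0.39, adjusted p = 0.00249), and the 5p arm 33.6 and 40.5 against 7.76 to 16.5 (1.24 ± 0.33, adjusted p = 0.0105). In both pairs, each arm's May values lay above all of its catagen values. The other large members were miR-411b-5p (log2 fold change 2.69), miR-3958-3p (2.04) and miR-487b-3p (1.62), followed by miR-376c-3p (1.52), miR-376e-3p (1.39), miR-411a-3p (1.32), miR-432-5p (1.31), miR-329b-3p (1.24) and miR-655 (1.16). Of these, miR-411b-5p and miR-329b-3p passed the filter only through the May libraries.

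Not all of the region differed. Its most abundant tested member, miR-379-5p, had a TPM of 474 and 570 in May and 312 to 459 in catagen (log2 fold change 0.05, adjusted p = 0.92), and miR-127-3p had 245 and 261 against 163 to 218 (-0.02, adjusted p = 0.962). With TMM the libraries of both groups overlapped for these miRNAs, whose May values in TPM lay above all of catagen. By neighbouring genes in RefSeq (assembly ARS1.2, gaps of at most 10000 bases), the tested members fell mainly into a group of 20 genes around miR-379, of whose 26 mature miRNAs 13 were higher with TMM and 25 were positive (median log2 1.28). A smaller group of miR-127, miR-136, miR-432 and miR-493 held 7 mature miRNAs, of which 4 were higher (median 1.09).

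The count of 17 depended on the libraries. It fell to 9 without the male May library and to 12 without the female one, and was 14 without the female December library, while the median log2 fold change stayed between 1.12 and 1.36 in all 6 fits. Among the 17, miR-127-5p was called in 0 of these fits, and miR-411a-3p and miR-432-5p in 1 of 6 each. Within a sex, the median over the 33 members was 1.32 in female and 1.12 in male libraries. Against November it was 1.43 and against December 1.0. Both month comparisons use the same May libraries.

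**Figure D2:**
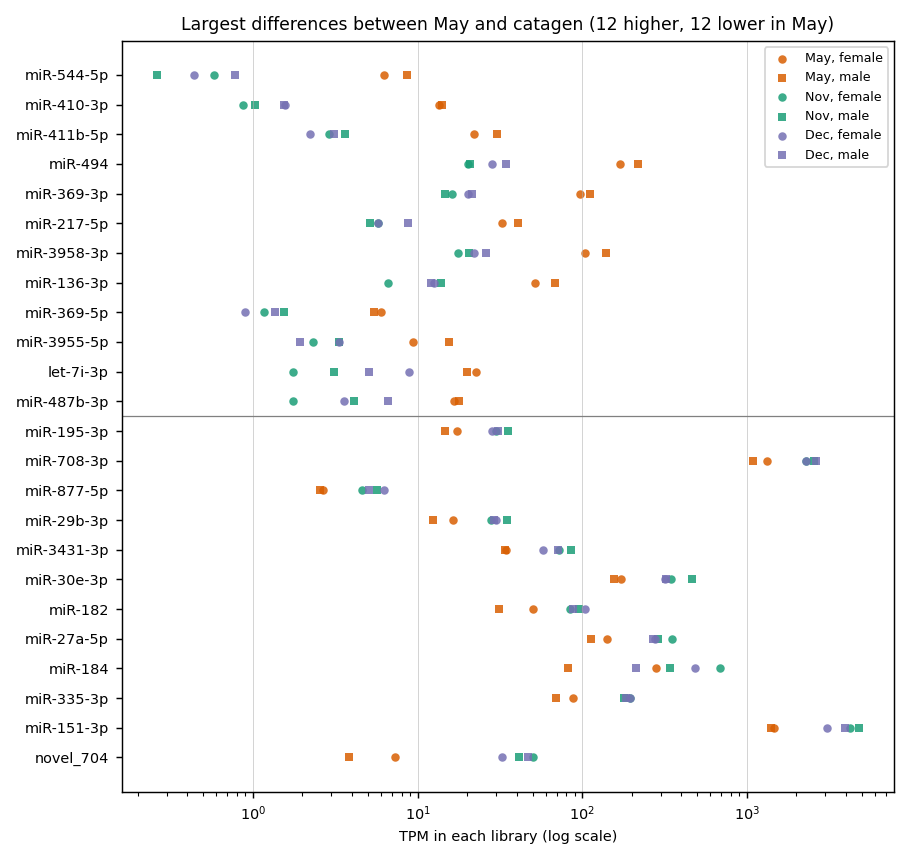
TPM in each library (horizontal, log scale) of the 12 miRNAs called with TMM that had the largest log2 fold changes either way, with the miRNAs higher in May above the grey line and those lower in May under it. Orange marks May, green November and purple December, circles female and squares male goats. Among the 12 lower in May, only for miR-184 does a May library (281) exceed a catagen library (214).

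Outside the imprinted region, pairs of neighbours or family members stood among the 13 miRNAs called higher. miR-217-5p, known for its level in exocrine pancreas, had a TPM of 32.4 and 40.5 in May and 5.15 to 8.73 in catagen (log2 fold change 2.05 ± 0.28, adjusted p = 0.000528). Its relative miR-216b had 7.25 and 7.34 against 1.45 to 2.45 (1.52), and passed the filter only through the May libraries. miR-365-3p and miR-193b-3p, which share a precursor transcript in mammals, were at 361 and 455 and at 603 and 663 in May, above 109 to 138 and 198 to 263 in catagen (log2 fold changes 1.26 and 1.05). The call of miR-193b-3p was lost with DESeq2 and RLE factors, as were those of miR-17-5p, miR-30e-5p, miR-146a and miR-324-5p, whose fold changes lie between 1.04 and 1.06. The remaining calls were let-7i-3p (1.74), miR-3955-5p (1.74), miR-16b-3p (1.26), miR-20b (1.24) and miR-301a-3p (1.24). Of these, miR-3955-5p, miR-16b-3p and miR-301a-3p passed the filter only through the May libraries.

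The miR-17-92 cluster and its paralogs, which favour cell proliferation, gave 2 calls higher and 0 lower among 18 tested members with TMM, near the 10.5% higher over all tested miRNAs, and 10 and 0 with totals, where 24.8% were higher over all. Of the 18, 2 passed the filter through May alone. The median log2 fold change was 0.77 with TMM and 1.19 with totals. miR-17-5p had a TPM of 3481 and 3533 in May and 962 to 1725 in catagen (log2 fold change 1.06 ± 0.19, adjusted p = 0.00124). miR-20a-5p had 5848 and 6341 in May and 2199 to 3757 in catagen, and stayed under the fold limit with TMM (0.75, adjusted p = 0.00704). Not every member was on the May side: miR-25-3p was at 4959 and 4381 in May and 4918 to 5543 in catagen (-0.60). The summed TPM of the list was 24606 and 24511 in May, 15426 and 13312 in November, and 17494 and 14048 in December, so the May libraries did not overlap with those of catagen. TPM is scaled by totals, with which the median over all tested miRNAs was 0.47. Sums of other lists did not overlap either, such as that of the reference candidates (10008 and 10594 in May, 8092 to 9172 in catagen). The number of calls in the miR-17-92 list was 6 without the female December library and 1 without the male library of either catagen month.

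Of the 21 miRNAs lower in May, 10 were called with both scalings. The largest difference was that of the candidate novel_704, with a TPM of 7.25 and 3.83 in May and 32.7 to 50.6 in catagen (log2 fold change -3.38 ± 0.41, adjusted p = 0.000291, and -2.92 with totals). The most abundant was miR-151-3p, which is encoded in an intron of the focal adhesion kinase gene PTK2 in mammals. It had 1475 and 1414 in May, 4212 and 4828 in November and 3064 and 3959 in December (-1.94 ± 0.30, adjusted p = 0.000667, and -1.48 with totals). Of the sensory organ cluster of miR-183, miR-96 and miR-182, miR-182 had 50.3 and 31.3 in May and 84.2 to 104 in catagen (-1.62 ± 0.27, adjusted p = 0.000912). On the same side, miR-183 stayed under the fold limit and was not called (-0.65, adjusted p = 0.00319). miR-27a-5p had 142 and 114 in May and 268 to 352 in catagen (-1.66). All 4 called miRNAs named here were lower in both sexes and were called in each of the 6 fits that left out a library.

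The other miRNAs called lower with both scalings were miR-335-3p (-1.70), miR-30e-3p (-1.60), miR-3431-3p (-1.53), miR-29b-3p (-1.51), miR-877-5p (-1.48, passed the filter only through catagen) and miR-708-3p (-1.46), in log2 fold change with TMM. Of those, miR-335-3p and miR-29b-3p lost their call without the male May library. Among the 11 called with TMM alone was miR-184, a miRNA of corneal and skin epithelium. It was higher in the female library of each month, with a TPM of 281 and 81.7 in May, 692 and 341 in November and 483 and 214 in December for female and male goats. Its log2 fold change was -1.70 ± 0.63 (adjusted p = 0.0452), and it was called in 2 of the 6 fits without a library. The others of the 11 included miR-195-3p (-1.40), miR-218 (-1.36), miR-378-3p (-1.12) and miR-125b-3p (-1.16).

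Lists of miRNAs with a known role in skin showed few calls with both scalings. Among 11 tested arms of miRNAs described as hair cycle regulators, 5 were lower and 0 higher in May with TMM (7.34% lower over all tested miRNAs), but 1 lower and 1 higher with totals (3.5% lower over all), with medians of -0.07 and 0.37. The 5 were miR-218, miR-22-3p, miR-24-5p, miR-29b-3p and miR-125b-3p, of which only miR-29b-3p was called with totals, and without the male May library the count was 0. Among the 5, miR-24-5p and miR-125b-3p are the less abundant arms of their precursors. Their abundant arms had log2 fold changes with TMM of -0.07 (miR-24-3p) and 0.61 (miR-125b-5p, adjusted p = 0.00259). miR-125b-5p was the 1 called higher with totals. miR-218, a positive regulator of Wnt signalling in the dermal papilla, had a TPM of 892 and 565 in May, 1578 and 1280 in November and 1227 and 1363 in December. None of the 5 tested miR-200 family members, which keep the epithelial state, was called with either scaling (median 0.23 with TMM). With TMM 4 of the 5 were positive, among them miR-200c (0.40, adjusted p = 0.0202), and miR-200a was negative (-0.87, adjusted p = 0.00469). Of 9 miRNAs listed as mesenchymal, 0 were called with TMM and 3 were higher with totals, all of them arms of miR-199. miR-199a-3p had 24306 and 25097 in May and 7639 to 12305 in catagen, a log2 fold change of 0.97 with TMM and 1.40 with totals, and reads of near-identical miR-199 copies may be split among them. Other members of the list lay on the catagen side with TMM, miR-143-3p at -0.91 (adjusted p = 0.00252), miR-145-5p at -0.67 (adjusted p = 0.0467) and miR-145-3p at -0.27 (adjusted p = 0.261). The keratinocyte list held miR-203 and miR-184 and gave 1 call lower with TMM and 0 with totals.

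In the remaining lists, counts with TMM are to be read against the 10.5% higher and 7.34% lower over all tested miRNAs. Members of the let-7 family, which promote differentiation, gave 1 call higher among 16 tested (median -0.18), and that call was the passenger arm let-7i-3p. The miR-30 list gave 1 higher (miR-30e-5p) and 2 lower (miR-30e-3p and miR-30a-3p) among 9. The list of miR-15 and miR-16 relatives gave 1 higher (miR-16b-3p) and 1 lower (miR-195-3p) among 10. In the list of miR-23, miR-27 and miR-24 arms 2 of 9 were lower (miR-27a-5p and miR-24-5p) and 1 had a positive fold change. The list of miR-28, miR-151 and miR-708 had 2 of 6 lower, and 1 was lower in each of the lists of miR-29 (3 tested), miR-99 with miR-100 (5), miR-125 (4), miR-378 (2) and miR-183 with miR-182 (2). The lists of the Hox-linked miR-10 and its neighbours (5 tested), miR-148 with miR-152 (4), miR-181 (3), miR-221 with miR-222 (3), miR-26 (3) and miR-34 with miR-449 (2) had 0 calls with TMM. With 8 reference candidates, miRNAs often used as normalizers, 0 were called with TMM (median -0.14) and 2 were higher with totals.

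The lists of other cells gave 1 call with TMM, that of miR-146a. The erythrocyte miRNAs miR-451-5p and miR-144-5p were not called, with a sum of 24.6 to 45.9 in May and 5.41 to 26.4 in catagen (log2 fold changes 0.70 and 1.02, adjusted p = 0.365 and 0.243). Of the 7 miRNAs in the leukocyte list, miR-146a was higher, at 1002 and 873 in May and 263 to 401 in catagen (1.06 ± 0.30, adjusted p = 0.0138), while miR-223-3p was at 27.6 and 14.7 against 9.55 to 23.8. The list's median log2 fold change with TMM was -0.17, and the 3 positive members were miR-146a and the arms of miR-146b. The 4 negative ones were miR-155-5p (-0.76, adjusted p = 0.0202), miR-223-5p (-0.59), miR-150 (-0.26) and miR-223-3p (-0.17). The planned leukocyte markers were miR-142, miR-150, miR-155 and miR-223. They did not include miR-146, so the call and the positive values came from miRNAs outside these markers. The sum of the leukocyte list was 16896 and 20756 in May and 8829 to 13996 in catagen, nearly all of it miR-146b-5p. The 4 muscle and 2 endothelial arms tested gave 0 calls with TMM. The TPM of miR-1 was 1752 and 2339 in May against 2260 to 3279 in catagen. With TMM its May libraries (1451 and 1925 CPM) lay below those of catagen (2614 to 3811), and it stayed just under the fold limit (-0.997, adjusted p = 0.0189). The muscle arms miR-133a-3p, miR-133b and miR-499-5p had log2 fold changes of 0.25, 0.02 and -0.03. The endothelial arms miR-126-3p and miR-126-5p had -0.60 (adjusted p = 0.0359) and 0.58 (adjusted p = 0.083). The part of blood, muscle or vessels in the differences was not tested.

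**Figure D3:**
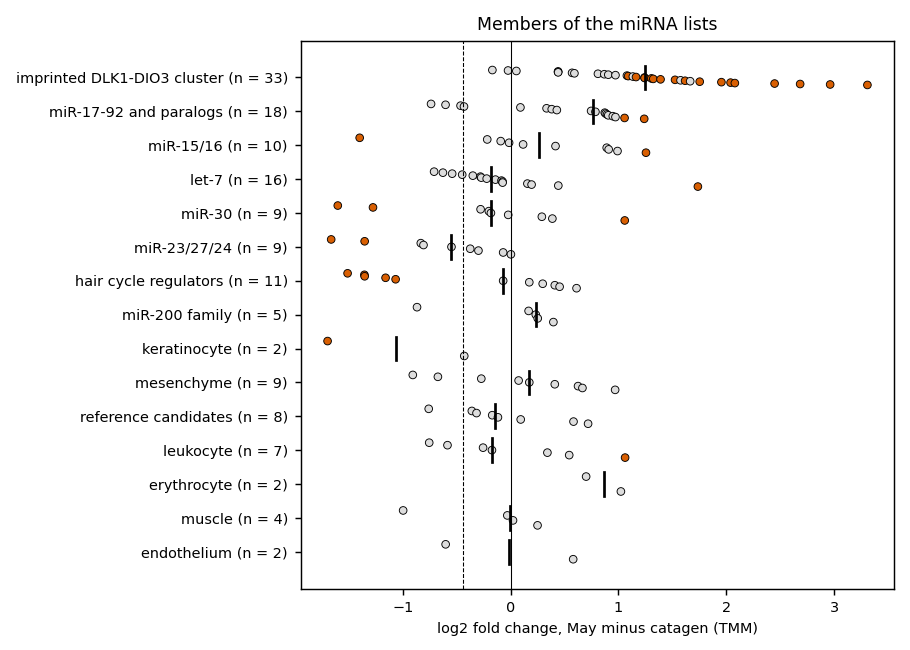
Log2 fold change of May minus catagen with TMM (horizontal axis) of the tested members of 15 lists, 1 point per miRNA, orange where called, with the list's median as a black bar. The solid line is 0 and the dashed line is 0 with library totals; the imprinted list, with 17 of 33 called, has its median at 1.24.

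The 12 most abundant miRNAs were not called with either scaling. miR-26a-5p, the highest, had a TPM of 141194 and 134222 in May and 168447 to 196381 in catagen, a log2 fold change of -0.89 (adjusted p = 0.00819) with TMM and -0.43 with totals. miR-27b-3p (-0.81), miR-143-3p (-0.91) and miR-148a-3p (-0.89) lay on the same side. miR-21-5p, a miRNA raised in proliferating and wounded epithelium, had 78498 and 72359 in May and 36891 to 42961 in catagen (0.50, adjusted p = 0.0452, and 0.94 with totals). The direction of miR-203, let-7a-5p, let-7g-5p, let-7i-5p and miR-10b-5p turned with the scaling, and that of let-7f-5p (-0.54) and miR-99a-5p (-0.53) did not.

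Totals alone put 41 further miRNAs past the limits in favour of May. The largest were members of the imprinted list, miR-412-5p (log2 fold change with totals 2.10, with TMM 1.66), miR-409-5p (2.01 and 1.58) and miR-382-5p (1.58 and 1.13), whose adjusted p with TMM was 0.0619, 0.0523 and 0.108. Next were miR-490 (1.43 and 0.98), miR-497-5p (1.42 and 0.99), miR-3959-3p (1.42 and 0.97), miR-199a-3p and miR-106b-5p (1.40 and 0.97).

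The ratio of the 5p to the 3p arm of a precursor does not depend on scaling, since both arms are counted in the same library. For 69 precursors with enough counts, the log2 ratio was tested with limma, and 32 (46.4%) differed between May and catagen at an adjusted p under 0.05. In May the ratio moved toward the 5p arm in 20 of them and toward the 3p arm in 12. The libraries of the groups did not overlap for any of the 32, as for 42 of all 69 precursors (60.9%). It moved toward the less abundant arm in 21 and away from that arm in 11. A ratio can move toward an arm that did not rise, as for miR-30a, with log2 fold changes with TMM of -0.28 (5p) and -1.28 (3p). With TMM the 2 arms had opposite signs in 25 of the 32 precursors and in 31 of all 69 (44.9%), and with totals in 23 and 32 (46.4%). The 32 were chosen for arms that moved apart, so this is a description of them.

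miR-30e had the largest difference. Its 5p arm had a TPM of 4962 and 4968 in May, 1438 and 1430 in November and 2789 and 1474 in December. Its 3p arm ran the other way, with 171 and 156 in May, 346 and 463 in November and 320 and 325 in December. The log2 ratio was 4.92 ± 0.0950 (SD, n = 2) in May and 2.24 ± 0.631 (SD, n = 4) in catagen, a difference of 2.68 ± 0.33 (SE, adjusted p = 8.57e-07). The female December library, at 3.12, was the nearest to May. Over the other settings tried the difference was between 2.47 and 2.97.

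For let-7i the change was toward the 3p arm, with a difference of -2.34 ± 0.40 (adjusted p = 3.41e-05). It came from let-7i-3p, with 94 and 63 counts in May and 6, 12, 40 and 26 in the catagen libraries, where the major arm let-7i-5p had 25344 to 32184 TPM against 27975 and 30947 in May. miR-151 shifted by 1.85 ± 0.33 and miR-335 by 1.87 ± 0.32 toward 5p, both through a lower 3p arm, the abundant one. For miR-125b (1.77 ± 0.26) and miR-125a (1.67 ± 0.27), relatives of the developmental regulator lin-4, the 5p arm was the abundant one, and the log2 fold changes with TMM were 0.61 and 0.74 for the 5p arms (not called) and -1.16 (called) and -0.96 (not called) for the 3p arms. miR-106b (1.72 ± 0.28) and miR-708 (1.72 ± 0.28) also shifted toward 5p. For miR-708 the arms came to be nearly equal, at log2 ratios of -0.19 and 0.10 in May against -2.16 to -1.39 in catagen. The ratios of all 8 of these precursors were called under each alternative in which they were tested.

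**Figure D4:**
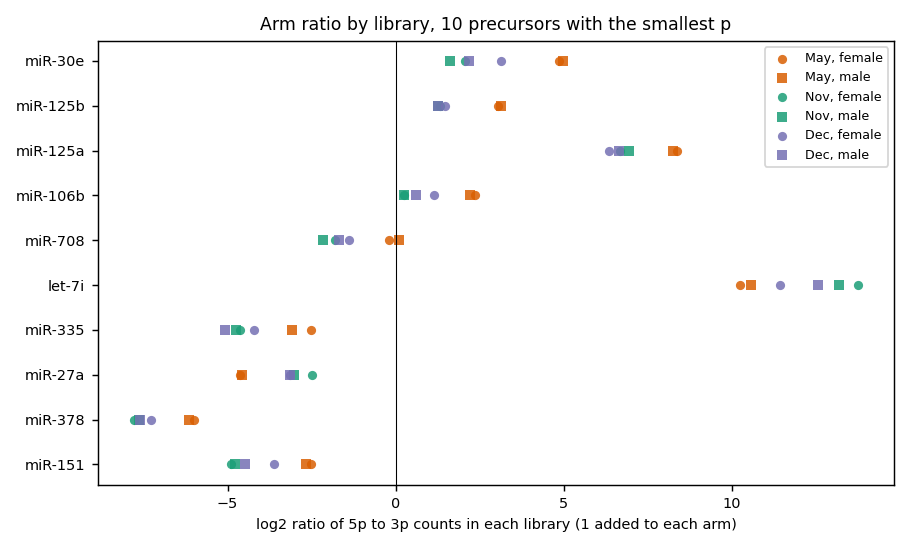
Log2 ratio of 5p to 3p counts, with 1 added to each, in each library (horizontal axis) for the 10 precursors with the smallest p. Colours and symbols mark month and sex as in the plot of levels by library; the May libraries of each precursor lie on the same side of all 4 catagen libraries.

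**Figure D5:**
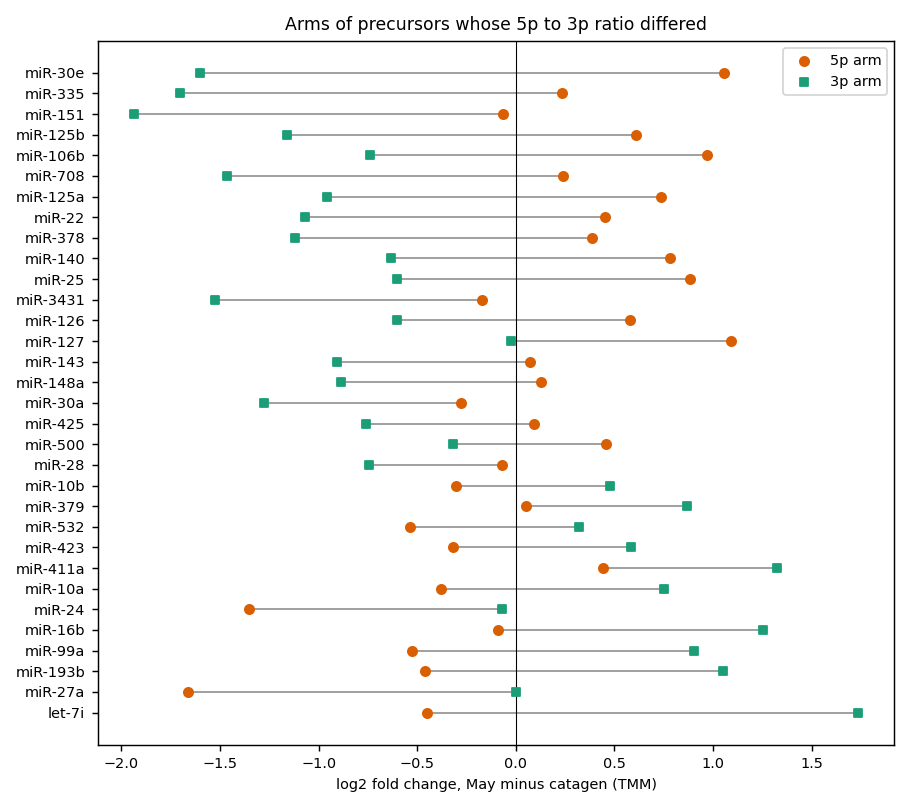
Log2 fold change of May minus catagen with TMM of the 5p arm (orange circles) and the 3p arm (green squares) of the 32 precursors whose ratio differed, joined by a line. The arms lie on opposite sides of 0 for 25 of them.

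November and December were also set against May separately, sharing the May libraries. With TMM, 58 miRNAs (20.3%) were called against November, 34 higher and 24 lower in May, and 31 (10.8%) against December, 15 higher and 16 lower. Of the 51 miRNAs called against catagen, 28 were called against both months, 16 against November alone, 3 against December alone and 4 against neither. Since both May libraries lay beyond all 4 catagen libraries for each of the 51, their sign against both months was fixed by the call. Between November and December 0 miRNAs were called by edgeR with TMM and 0 with totals, where 10 and 12 had an unadjusted p under 0.05. The passenger arm let-7i-3p was at 1.74 and 3.09 TPM in November and 8.89 and 5.05 in December, with log2 fold changes of 2.62 and 1.26 for May against each.

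Fold changes of May against catagen had the same sign in female and male libraries for 246 of the 286 tested miRNAs (86%). For the 51 called miRNAs the lack of overlap between groups fixes the sign in both sexes, and 41 of them were at least 2-fold in both. The interaction of sex with the difference between May and catagen had 0 calls by edgeR with either scaling (smallest adjusted p = 0.999 with TMM), and 4 miRNAs had an unadjusted p under 0.05 with each. The size of interaction that these libraries could show was not tested. The smallest p with TMM was that of miR-211, chosen after its values were seen, with log2 fold changes of -0.64 in female and 1.02 in male libraries (adjusted p of the interaction = 0.999, edgeR).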

How the data were processed

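Small RNA of dissected SHFs was sequenced. The authors mapped trimmed reads to CHIR_2.0, quantified miRNAs with Bowtie 0.12.9 and deposited, for each library, a raw count per miRNA and its TPM. That deposited TPM differed from the count over its library's total, on the same scale, by less than 0.005. How reads matching several miRNAs were assigned is not given in the sources used here.

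For the counts, edgeR 4.0.16 in R 4.3.3 (glmQLFit, glmQLFTest) was used in a fit of all 12 libraries with 4 groups (telogen, May, September, catagen) that share an estimate of the spread, with TMM or library totals. miRNAs over 5 CPM in at least 2 of the 6 libraries were tested, and p-values were adjusted by Benjamini-Hochberg over all 286. Arm ratios (mean count of both arms at least 20) went into limma 3.58.1 as log2 values with 1 added to each arm. Months and sexes had fits of their own. SEs were derived from the F statistic. Alternatives included DESeq2 1.42.0, other factors, tests, filters and libraries left out.

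Libraries are the replicates. The study used several goats per time point, and how they were combined into libraries is not given in the sources used here. The p-values therefore measure the spread between libraries within the groups of a fit, which may in part be technical. Each month has 1 library per sex. In the fit of 4 groups this spread thus also holds differences between sexes and, in catagen and telogen, between months. Totals of 3135292 counts or more make counting error small except for rare miRNAs. Reads carry no molecular identifiers. In simulated counts, 198 of 200 miRNAs changed 4-fold were recovered and 0 of 86 unchanged ones called (286 miRNAs). The changes went up and down in equal numbers, and a call again needed at least a 2-fold difference. Most calls in the data were smaller than 4-fold. Recovery of smaller or unbalanced changes in miRNA levels was not simulated. For arm ratios 13 of 15 were recovered and 0 of 54 called (69 precursors).

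The miRNAs and lists were chosen with earlier results of these data known. Named were up to 12 called miRNAs with the largest fold change in each direction, up to 8 called with totals alone, the 12 most abundant, list members, and up to 8 arm ratios by size. Other called miRNAs were named after their values were seen, as were miR-27a and miR-378 in a plot. RefSeq genes of ARS1.2 (188 of 211 names matched) served only to find neighbours.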

Additional observations from a re-analysis of the deposited data

Results flagged for a closer look

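Among 73 sets of 4 catagen libraries examined, 3 miRNAs had a library far from the other 3 by Dixon's criterion, which chance alone meets in about 1 in 20 sets. The female December library held miR-30e-5p at a TPM of 2789, against 1430 to 1474 in the others. miR-497-5p had 18.2 in the same library and 10.4 to 11.3 in the others. miR-9-5p had 94.9 in the female November library and 49.1 to 56.5 in the others, and its call lower in May (log2 fold change -1.06) was lost without that library and without either May library.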

How the results depend on the processing

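The 2 May libraries limit the precision. Of the 51 calls with TMM, 22 were made in all 6 fits without a library and 10 under all 17 alternatives. With library totals the calls were 81 (71 higher, 10 lower), and with a filter of 50 CPM 24 (10 higher; 40 with totals, 33 of them higher). Without a minimum fold they were 122 (66 and 56), and 137 with totals (116 and 21). Leaving out each library gave 32 (without the male May library) to 61 calls (without the female December library), 19 to 36 higher and 10 to 28 lower, and with totals 5 to 10 lower. Against November and December totals gave 88 and 54 calls. Arm ratios gave 19 calls at a mean count of 100 or more and 23 to 37 in the fits without a library.

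In fits added after seeing the data, the imprinted list had 4 calls at 50 CPM and 9 to 16 without a library. The miR-17-92 list had 10 with totals, 4 in a fit of only the 6 libraries, 1 with RLE, with DESeq2, with the filter over 12 libraries and at 50 CPM, and 1 to 6 without a library. The hair cycle list had 1 lower with totals, 3 at 50 CPM and 0 to 5 without a library. The log2 fold change turned positive with totals for miR-203 (0.01), let-7g-5p (0.10), let-7i-5p (0.01), let-7a-5p (0.37) and miR-10b-5p (0.15). For let-7a-5p it was 0.00 in a fit of only the 6 libraries and -0.26 to 0.03 without a library. The scalings' shift and the fewer miRNAs left by the filters are part of these alternatives, and other causes were not tested. With sex as a term, 54 were called.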
